A study of Mus musculus with 3 samples.

Results

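*Itgbl1*, the gene for integrin beta-like 1, was described beside 9 integrin subunit genes in 3 spatial sections of healing mouse skin. The 10 genes were taken by symbol from the 32285 genes counted: *Itgbl1*, the beta subunits *Itgb1*, *Itgb2*, *Itgb3*, *Itgb4* and *Itgb5*, and the alpha subunits *Itgav*, *Itga5*, *Itga6* and *Itga11*. Each of the 10 had UMIs under tissue in every section, and each was annotated as protein coding. The question was whether *Itgbl1* lay with the integrins of fibroblasts, with the leukocyte subunit *Itgb2*, or with the epidermal subunits *Itga6* and *Itgb4*, over the days and over the spots of a section.

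Integrins are receptors made of an alpha and a beta chain that span the cell membrane, bind matrix proteins or counter-receptors on other cells, and connect them to the actin cytoskeleton through talin, kindlin and further adaptors. Alpha 11 pairs with beta 1 and binds fibrillar collagen, and alpha 5 pairs with beta 1 and binds fibronectin. Alpha v pairs with beta 1, beta 3 or beta 5 and binds RGD-bearing proteins such as vitronectin, fibronectin and the latency peptide of TGF beta. Beta 2 is the shared chain of the leukocyte integrins, and alpha 6 with beta 4 forms the laminin receptor of hemidesmosomes, which anchors basal keratinocytes. Integrin beta-like 1 carries EGF-like repeats resembling those of beta subunits but has no transmembrane segment and is secreted, so it is not itself a membrane receptor chain.

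The samples were fresh frozen skin wounds of C57BL/6J mice, adult males by the study's methods, on Day 3, Day 7 and Day 14 after excisional injury to the back, with 1 section per day and no treatment given in the labels. No unwounded section was analysed here. The assay was Visium: spots with positional barcodes on a slide capture RNA from the tissue laid on them, and a unique molecular identifier (UMI) lets every captured molecule be counted. A spot covers several cells, so fewer cells of a type and less RNA per cell cannot be told apart. The marked tissue held 664 spots with 1772259 UMIs on Day 3, 549 spots with 4442962 UMIs on Day 7 and 697 spots with 4611723 UMIs on Day 14. With 1 section per day there was no estimate of the spread between wounds, so no test between days was made, and every 95% interval given covers counting error only. The 10-gene marker lists of matrix fibroblasts, granulation tissue, leukocytes, epidermis, endothelium and muscle each had UMIs of all their genes in all 3 sections. The neutrophil list summed to 2274 CPM (UMIs per 1000000 UMIs) in the earliest section, then to 204 and 144 CPM, and the hair follicle list to 593, 339 and 6156 CPM.

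*Itgbl1* lies on the plus strand of chromosome 14 (mm10), *Itga11* on the plus strand of chromosome 9 and *Itgb5* on the plus strand of chromosome 16. These 3 genes are shown by promoter because they were the members past 1.5-fold higher on Day 7 than on Day 3. Each line gives the RefSeq sequence (GRCm38.p6) before the gene's start, 5′ to 3′ on the gene's own strand, ending where the GENCODE gene model begins. Capitals mark GGGCGG (the GC box), CAGACA (a SMAD element), TGACTCA (an AP-1 site) or GAGGAA (the core of PU.1 sites), read on either strand.
*Itgbl1* (chr14:123659890-123659970): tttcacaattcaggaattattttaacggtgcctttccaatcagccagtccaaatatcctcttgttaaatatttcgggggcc
*Itga11* (chr9:62677605-62677825): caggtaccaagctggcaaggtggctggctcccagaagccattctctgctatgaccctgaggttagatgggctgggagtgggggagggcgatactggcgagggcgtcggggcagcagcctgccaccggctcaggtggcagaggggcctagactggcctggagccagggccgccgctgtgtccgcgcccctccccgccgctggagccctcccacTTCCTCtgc
*Itgb5* (chr16:33829415-33829664): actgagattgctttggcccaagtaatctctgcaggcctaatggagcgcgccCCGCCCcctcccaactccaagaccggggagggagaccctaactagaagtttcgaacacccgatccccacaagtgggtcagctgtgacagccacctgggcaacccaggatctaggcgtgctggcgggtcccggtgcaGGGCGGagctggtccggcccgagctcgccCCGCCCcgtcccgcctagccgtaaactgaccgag

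The motifs were searched in the 250 bases before the RefSeq start, which 6 of the 10 members had in the table (*Itgbl1*, *Itgb1*, *Itgb5*, *Itgav*, *Itga5* and *Itga11*). In that window *Itgbl1* had 1 GC box, 26 bases before the RefSeq start and inside the GENCODE gene model, so it is not in the stretch shown. *Itgb5* had 3 GC boxes and *Itga11* had 1 GAGGAA match on the opposite strand. The same windows of all 32851 promoters in the table held a GC box in 32.7%, GAGGAA in 23.2%, CAGACA in 17.1% and TGACTCA in 4.46%. No TGACTCA was found in the windows of these 6 members, and CAGACA was found in that of *Itgb1*, the most widely shared beta chain. *Itgbl1* and *Itgb5* thus both had a GC box, and none of the 4 motifs was in the windows of all 3 genes shown.

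Over the days the members fell into 3 shapes. *Itgbl1*, *Itgb1*, *Itgb3*, *Itgb5*, *Itga5* and *Itga11* were highest on Day 7, *Itgb2*, *Itgav* and *Itga6* were highest on Day 3, and *Itgb4* was highest on Day 14. For *Itga5* and *Itgb3* the Day 7 over Day 3 interval held 0, at 0.27 (-0.01 to 0.55) and 0.56 (-0.02 to 1.17). For *Itgb4* that of Day 14 over Day 3 did too, at 0.21 (-0.13 to 0.56). The peaks of these genes were thus not resolved from counting error. *Itgbl1* gave 130 UMIs in the Day 3 section, or 73.4 CPM, then 550 UMIs (124 CPM) in the Day 7 section and 266 UMIs (57.7 CPM) in the Day 14 section. Its Day 7 level was 1.69-fold that of Day 3, a log2 ratio of 0.76 (95% interval 0.48 to 1.04), and its Day 14 level was lower than Day 7 with a log2 ratio of -1.10 (-1.32 to -0.89). Day 14 against Day 3 gave -0.35 (-0.65 to -0.03), so these sections were the closest pair for *Itgbl1*.

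**Figure D1:**
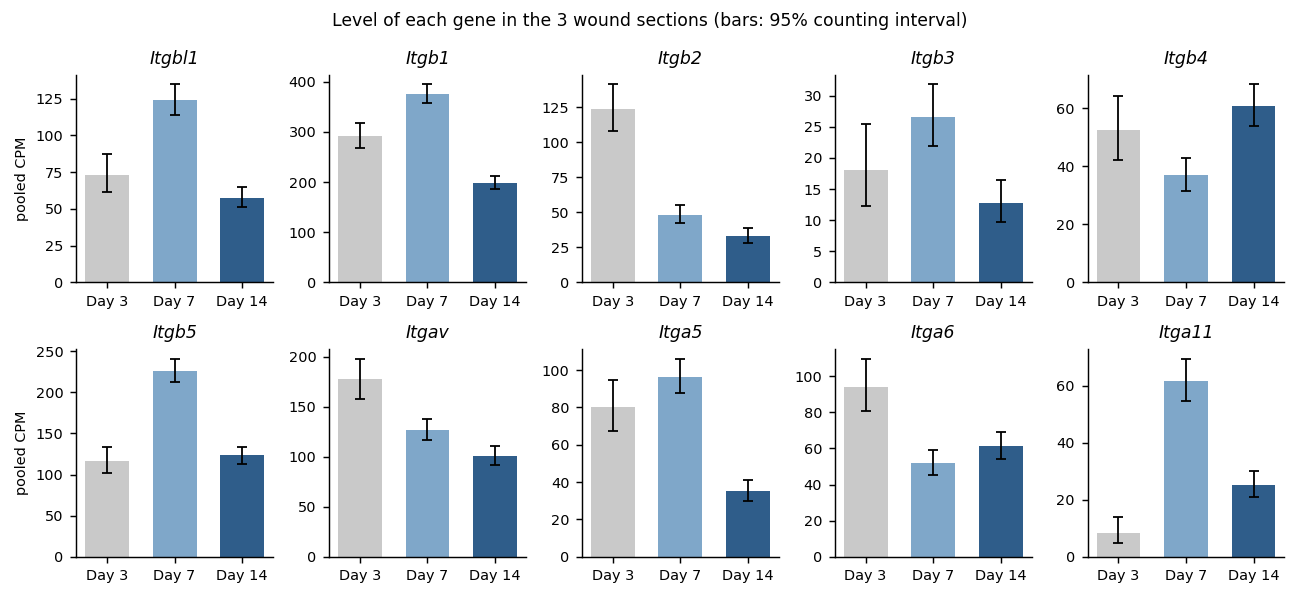
Pooled CPM (UMIs of the gene per 1000000 UMIs over spots under tissue) of the 10 genes on Day 3, Day 7 and Day 14, with 1 section per day and 95% counting intervals as error bars; each panel has its own axis from 0. *Itgbl1* at 73.4, 124 and 57.7 CPM and *Itga11* at 8.46, 61.7 and 25.2 CPM peak on Day 7, while *Itgb2* goes from 124 to 33.0 CPM.

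A ratio was called past the fold when it was at least 1.5-fold either way and its interval left out 1, among genes with at least 50 UMIs over both sections. In Day 7 over Day 3, 3 of the 10 members were past the fold higher, against 16.9% of the 10541 genes counted, and 2 were lower, against 14.4%. In Day 14 over Day 7, 6 members (*Itgbl1*, *Itgb1*, *Itgb3*, *Itgb5*, *Itga5* and *Itga11*) were lower, against 14.8% of 11746 genes, and 1, *Itgb4*, was higher, against 22.6%. In Day 14 over Day 3, 4 members were lower, against 13.6% of 10955 genes, and 1 was higher, against 25.6%. The median log2 ratio of the 10 members was 0.32, -0.90 and -0.52 in these comparisons, where that of all counted genes was 0.04, 0.13 and 0.18. All 3 comparisons share sections, so they are not independent of each other.

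Among the members highest on Day 7, *Itga11* had the widest range in fold. The Day 3 section held 15 of its UMIs (8.46 CPM), the Day 7 section 274 (61.7 CPM) and the Day 14 section 116 (25.2 CPM). Day 7 was 7.29-fold above Day 3, a log2 ratio of 2.87 (2.12 to 3.72), and Day 14 was still higher than Day 3 at 1.57 (0.79 to 2.45). *Itga11* therefore shared the Day 7 peak of *Itgbl1*, but unlike *Itgbl1* it was past the fold above its Day 3 level on Day 14. When each spot was given equal weight, by the mean of spot CPM, its log2 ratios to Day 3 were 1.53 on Day 7 and 0.59 on Day 14.

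*Itgb5*, a beta chain of alpha v, was at 117, 226 and 123 CPM over the 3 sections. Its ratios of 0.96 (0.74 to 1.18) for Day 7 over Day 3 and -0.88 (-1.03 to -0.73) for Day 14 over Day 7 were both past the fold, and Day 14 over Day 3 was 0.08 (-0.16 to 0.31). *Itgb5* thus went up and back between the first and the last section, as *Itgbl1* did. *Itgb1*, at 292, 376 and 199 CPM, was past the fold in Day 14 over Day 7 at -0.92 (-1.04 to -0.80) and not in Day 7 over Day 3 at 0.37 (0.22 to 0.51). *Itga5*, at 80.1, 96.6 and 35.3 CPM, had a similar course with a Day 14 over Day 7 ratio of -1.45 (-1.72 to -1.19). *Itgb3*, the beta chain of platelets, endothelium and osteoclasts, was sparse, with 32, 118 and 59 UMIs, and the platelet list had UMIs of 7, 3 and 7 of its 10 genes. Its Day 14 over Day 7 ratio was -1.05 (-1.53 to -0.59), and -0.41 when all spots of the slide were pooled, which is not past the fold.

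*Itgav* did not share the Day 7 peak of its partner chains *Itgb1* and *Itgb5*. Its level went from 177 CPM in the Day 3 section to 126.5 CPM in that of Day 7 and 101 CPM in that of Day 14. The Day 14 over Day 3 ratio was -0.82 (-1.03 to -0.61), and -0.58 by the mean of spot CPM, which is just short of the fold. The reads of *Itgav* could overlap those of 1 counted gene on the opposite strand, and the part of such reads was not tested.

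*Itgb2* had the reverse of the *Itgbl1* course between the first 2 sections. The Day 3 section held 219 UMIs (124 CPM), the Day 7 section 215 (48.4 CPM) and the Day 14 section 152 (33.0 CPM). The log2 ratio was -1.35 (-1.63 to -1.07) for Day 7 over Day 3 and -1.91 (-2.22 to -1.60) for Day 14 over Day 3. The summed leukocyte list, which holds no integrin, was at 1726, 1196 and 635 CPM, and the neutrophil list was 2274 CPM on Day 3 against 204 on Day 7. Per 10000 UMIs of the leukocyte list, *Itgb2* gave 716 UMIs in the Day 3 section (624 to 817), then 405 (352 to 462) and 519 (440 to 609) in the later sections. The Day 3 excess of *Itgb2* was thus larger than that of the leukocyte list, and the part of the neutrophil RNA in it was not tested.

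The epidermal subunits moved apart from *Itgbl1*. *Itgb4* was at 52.5, 36.9 and 60.7 CPM over the 3 sections, so that its lowest section was the highest of *Itgbl1*. Its Day 14 over Day 7 ratio of 0.72 (0.43 to 1.01) was past the fold, and its Day 7 over Day 3 ratio of -0.51 (-0.88 to -0.12) was not. *Itga6* was at 94.2, 51.8 and 61.4 CPM, with a Day 7 over Day 3 ratio of -0.86 (-1.16 to -0.57). The epidermis list summed to 7637, 3980 and 9823 CPM, also lowest on Day 7. Per 10000 of its UMIs *Itgb4* was found at 68.7, 92.8 and 61.8 UMIs and *Itga6* at 123, 130 and 62.5 UMIs, so the Day 7 low of both was not seen on this scale. The hair follicle list was higher on Day 14 than on both earlier days, and its part in the Day 14 values was not tested. Reads of *Itga6* could be shared with 2 counted genes that overlap it on the same strand.

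Relative to matrix RNA *Itgbl1* differed less between the days. Per 10000 UMIs of the matrix fibroblast list (*Col1a1*, *Col1a2*, *Col3a1*, *Dcn*, *Lum*, *Pdgfra*, *Fbn1*, *Col5a1*, *Col6a3* and *Dpt*), *Itgbl1* gave 14.4 UMIs in the Day 3 section (12.04 to 17.1), then 17.4 (16.0 to 18.9) and 15.6 (13.8 to 17.6) in the later sections. The log2 ratios on this scale were 0.27 (-0.01 to 0.56) for Day 7 over Day 3, -0.16 (-0.37 to 0.06) from Day 7 to Day 14 and 0.11 between the outer sections, and none was past the fold. Without *Col1a1* and *Col3a1*, which hold most of the list's UMIs, the Day 7 over Day 3 ratio was 0.48 (0.20 to 0.77), still under 1.5-fold. *Itgb1* had a narrow range too, at 57.3, 52.8 and 53.8 UMIs per 10000. *Itga11* was not: it was found at 1.66 UMIs per 10000 on Day 3, 8.66 on Day 7 and 6.80 on Day 14, with a Day 7 over Day 3 ratio of 2.38 (1.63 to 3.24). *Itgb5* was between them, at 22.9, 31.8 and 33.3 UMIs per 10000, and it stayed as high on Day 14 as on Day 7 on this scale.

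To see where each gene lay within a section, the spots with at least 500 UMIs were ranked by the share of their UMIs that a marker list takes, and the highest 25% (list-high spots) were compared with all other spots of the section. The 3 sections had 520, 539 and 689 such spots. *Itgbl1* was past the fold higher in the matrix fibroblast-high spots of all 3 sections. It was at 150 CPM against 32.0 CPM in the other spots on Day 3, a log2 ratio of 2.23 (1.66 to 2.82). The Day 7 ratio was 0.86 (0.61 to 1.10), at 168 against 92.9 CPM, and the Day 14 ratio was 1.06 (0.69 to 1.42), at 95.8 against 46.1 CPM. The list itself was at 101300 CPM in its list-high spots against 23360 CPM in the others on Day 3. It was at 90890 against 57520 CPM on Day 7 and at 65500 against 28350 CPM on Day 14. The list-high sets thus stood apart least on Day 7, so the ratios of different days are not on the same scale. The fibroblast-high spots were deeper than the others, with a median of 4220 UMIs against 1668 on Day 3, 12250 against 4879 on Day 7 and 5417 against 4686 on Day 14, and the part of depth in these ratios was not tested beyond thinning each spot to 1000 UMIs, which gave 1.22 on Day 3.

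**Figure D2:**
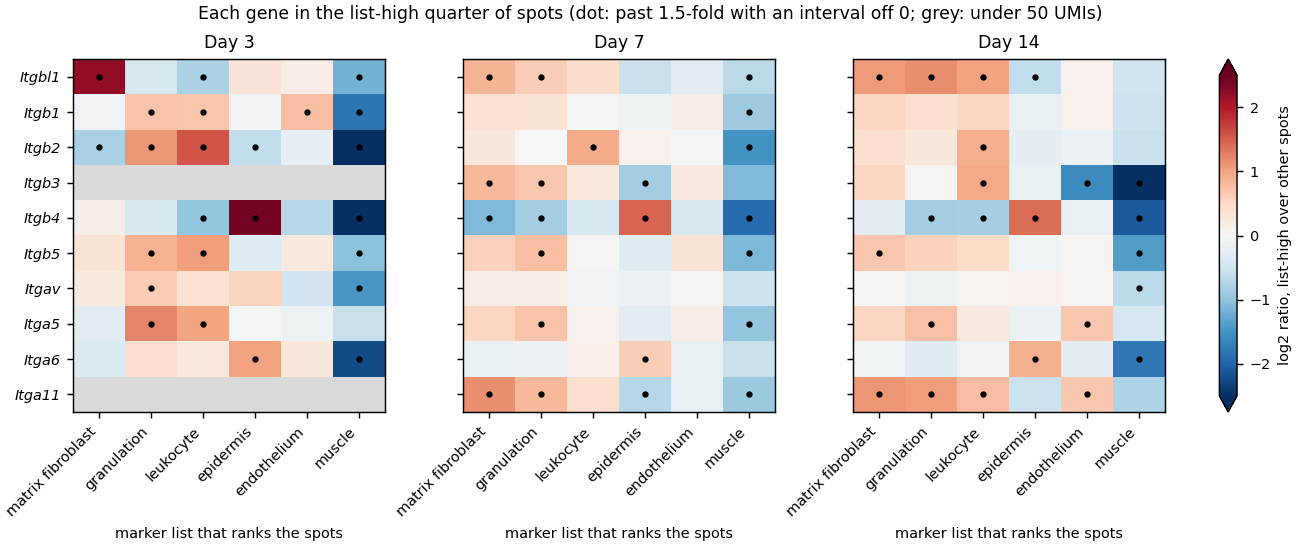
Log2 ratio of each gene's pooled CPM in list-high spots over the other spots, for 6 marker lists (columns) and 10 genes (rows) in the Day 3, Day 7 and Day 14 sections; dots mark ratios past 1.5-fold whose counting interval leaves out 0, and grey marks genes with under 50 UMIs in the section. *Itgbl1* is past the fold higher in the matrix fibroblast column on every day (2.23, 0.86 and 1.06), *Itgb2* in the leukocyte column (1.58, 0.92 and 0.90) and *Itgb4* in the epidermis column (2.39, 1.45 and 1.39).

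On Day 3 *Itgbl1* was the 1 member of 8 counted that was higher in matrix fibroblast-high spots, against 11.5% of all counted genes, and *Itgb2* was the 1 that was lower, against 11.5% as well. *Itgb2* had a ratio of -0.81 (-1.28 to -0.35) there, 84.4 CPM against 147 CPM, opposite to *Itgbl1*, although thinning before pooling brought it to 0.047. On Day 7 *Itgbl1*, *Itgb3* and *Itga11* were higher (3 of 10, background 5.40%) and *Itgb4* was lower (1 of 10, background 9.81%). The Day 7 ratios were 1.16 (0.80 to 1.53) for *Itga11*, above that of *Itgbl1* with overlapping intervals, and 0.81 (0.27 to 1.37) for the sparse *Itgb3*, which thinning turned to -1.58. On Day 14 *Itgbl1*, *Itgb5* and *Itga11* were higher (3 of 10, background 6.80%) and no member was lower, where 3.65% of all genes were. *Itga11* had a Day 14 ratio of 1.11 (0.54 to 1.67), close to the 1.06 of *Itgbl1*, while *Itgb1* was at 0.53 (0.32 to 0.73). On Day 3 *Itga11* had 8 UMIs in the fibroblast-high spots and 6 in the others, too few to place it.

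Granulation-high spots were ranked by *Postn*, *Acta2*, *Tagln*, *Tnc*, *Lrrc15*, *Cthrc1*, *Fn1*, *Fap*, *Adam12* and *Col12a1*, taken as markers of granulation tissue. The list summed to 1368, 8498 and 1745 CPM over the days, with *Fn1* its highest gene on Day 3. Of the granulation-high spots 56 of 130, 58 of 135 and 81 of 172 were leukocyte-high, and 44, 86 and 82 were matrix fibroblast-high. The part of leukocyte RNA in the ratios below was not tested. *Itgbl1* was not past the fold in them on Day 3, at -0.41 (-1.07 to 0.21), and was higher on Day 7, at 0.62 (0.37 to 0.86), and on Day 14, at 1.16 (0.79 to 1.52). On Day 3 the 5 of 8 members that were higher were *Itgb1*, *Itgb2*, *Itgb5*, *Itgav* and *Itga5* (background 15.0%), without *Itgbl1*. On Day 7 *Itgbl1*, *Itgb3*, *Itgb5*, *Itga5* and *Itga11* were higher (5 of 10, background 7.69%), and on Day 14 *Itgbl1*, *Itga5* and *Itga11* were (3 of 10, background 6.19%). *Itga5*, the alpha chain of the fibronectin receptor, was the 1 member higher in these spots on all 3 days, with ratios of 1.21 (0.71 to 1.71), 0.72 (0.44 to 0.998) and 0.74 (0.24 to 1.22). The list holds *Fn1*, the gene of its ligand.

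In leukocyte-high spots *Itgb2* was higher on each day. Its ratio was 1.58 (1.18 to 1.97) on Day 3, at 246 against 82.4 CPM, 0.92 (0.52 to 1.32) on Day 7 and 0.90 (0.39 to 1.40) on Day 14. *Itgbl1* did not keep a direction there, with -0.78 (-1.52 to -0.11) on Day 3, 0.44 (0.18 to 0.69) on Day 7 and 1.002 (0.63 to 1.37) on Day 14. On Day 3 the members higher in leukocyte-high spots were *Itgb1*, *Itgb2*, *Itgb5* and *Itga5* (4 of 8, background 16.6%), and *Itgbl1* and *Itgb4* were lower (2 of 8, background 13.8%). On Day 7 *Itgb2* alone of the 10 was higher, against 3.50% of genes, and none was lower, against 5.91%. On Day 14 *Itgbl1*, *Itgb2*, *Itgb3* and *Itga11* were higher (4 of 10, background 6.09%) and *Itgb4* was lower (1 of 10, background 4.30%). The Day 3 direction of *Itgbl1* was lost when the spots were ranked by the summed ranks of the list's genes (0.049) or thinned before pooling (0.092), and so was that of *Itgb4* (0.40 and 2.18).

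The leukocyte-high and fibroblast-high sets overlapped to a different extent in each section. Of the matrix fibroblast-high spots 16.9% were leukocyte-high on Day 3 (22 of 130), 45.2% on Day 7 (61 of 135) and 48.8% on Day 14 (84 of 172). The spots were therefore split by both lists. Of the matrix fibroblast-high spots 40.8% were epidermis-high on Day 3 (53 of 130), 13.3% on Day 7 (18 of 135) and 20.9% on Day 14 (36 of 172). Those spots were not split out. In spots that were leukocyte-high only, *Itgbl1* was at 36.5, 90.0 and 62.1 CPM over the days, against 29.6, 93.5 and 43.6 CPM in spots that were neither. The ratio held 0 within its interval on every day, at 0.30 (-0.78 to 1.33), -0.06 (-0.57 to 0.43) and 0.51 (-0.11 to 1.09). In spots that were fibroblast-high only, *Itgbl1* was at 155, 153 and 67.7 CPM, with ratios of 2.38 (1.69 to 3.13), 0.71 (0.39 to 1.02) and 0.64 (0.06 to 1.18). The intervals of *Itgbl1* thus left out 0 for the fibroblast list alone and held 0 for the leukocyte list alone. On Day 14 the intervals of both kinds of spot overlapped widely, at 67.7 and 62.1 CPM, so that section did not separate the lists. The highest values of Day 7, 186 CPM (158 to 218), and Day 14, 123 CPM (95.6 to 157), were in spots that were both. On Day 7 that interval overlapped the one of fibroblast-high only spots (129 to 179).

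*Itgb2* was higher in leukocyte-high only spots on Day 3 and Day 14, and on Day 7 its interval held 0. In leukocyte-high only spots it was at 271, 62.1 and 49.6 CPM, against 83.5, 40.5 and 27.5 CPM in spots that were neither, with ratios of 1.70 (1.23 to 2.17), 0.62 (-0.04 to 1.24) and 0.85 (0.13 to 1.52). In fibroblast-high only spots its ratios were -0.05 (-0.63 to 0.53), -0.27 (-0.89 to 0.32) and 0.04 (-0.86 to 0.84). *Itga11* on Day 7 was at 1.11 (0.67 to 1.55) in fibroblast-high only spots and -0.10 (-0.92 to 0.64) in leukocyte-high only spots. Its fibroblast-high only ratios of Day 3, 0.42 (-1.70 to 2.54), and Day 14, 0.57 (-0.33 to 1.38), held 0 within their intervals. Those of *Itgbl1* did not, but the intervals of both genes overlapped on each of these days. *Itgb5* was high in both kinds of spot on Day 3, at 1.54 (0.99 to 2.09) in leukocyte-high only and 0.98 (0.43 to 1.54) in fibroblast-high only spots, and on Day 7 only the fibroblast-high only spots were past the fold, at 0.74 (0.52 to 0.96) against 0.08 (-0.26 to 0.41).

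**Figure D3:**
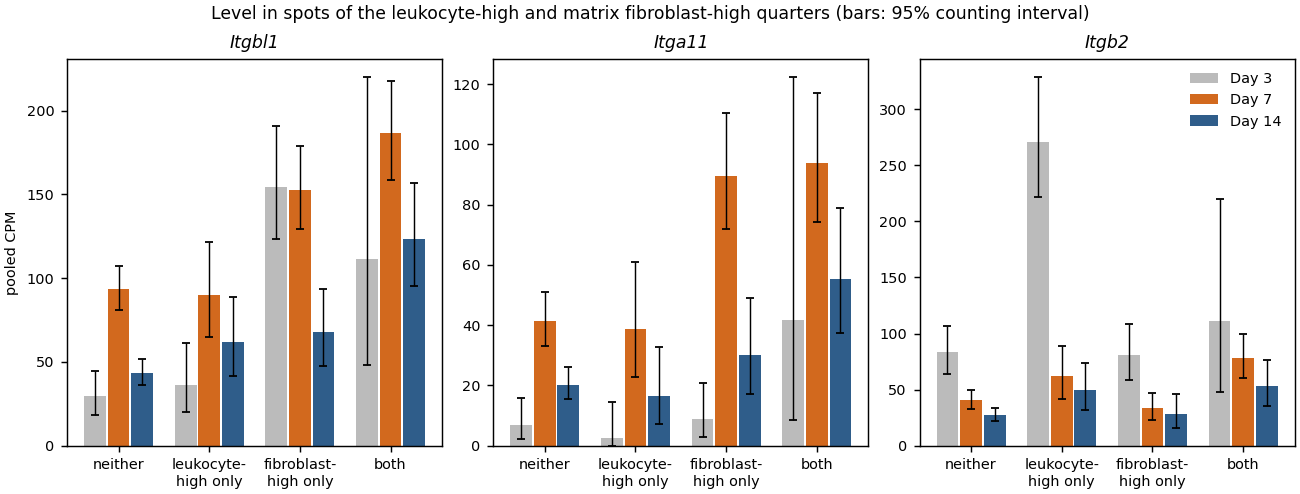
Pooled CPM of *Itgbl1*, *Itga11* and *Itgb2* in spots that were in neither list-high set, leukocyte-high only, matrix fibroblast-high only or both, for Day 3, Day 7 and Day 14, with 95% counting intervals; each panel has its own axis from 0. *Itgbl1* is at 155 CPM in fibroblast-high only spots and 36.5 CPM in leukocyte-high only spots of Day 3, and *Itgb2* at 80.9 and 271 CPM.

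In epidermis-high spots (ranked by *Krt5*, *Krt14* and 8 further keratinocyte genes) *Itgb4* and *Itga6* were the 2 members higher on every day, against 17.4% of genes on Day 3, 7.56% on Day 7 and 9.82% on Day 14. *Itgb4* had ratios of 2.39 (1.66 to 3.18), 1.45 (0.99 to 1.91) and 1.39 (1.04 to 1.75), and *Itga6* of 1.0 (0.54 to 1.47), 0.61 (0.20 to 1.01) and 0.90 (0.55 to 1.25). *Itgbl1* was not higher there on any day, with 0.32 (-0.21 to 0.83), -0.55 (-0.87 to -0.24) and -0.62 (-1.03 to -0.22). The members lower in these spots were *Itgb2* on Day 3 (1 of 8, background 11.8%), *Itgb3* and *Itga11* on Day 7 (2 of 10, background 3.99%) and *Itgbl1* on Day 14 (1 of 10, background 5.52%). The Day 3 value of *Itgbl1* moved with the choice of spots, from -0.25 in the highest 10% to 1.20 when the list's genes were summed by rank. Thinning, which left few UMIs, turned the Day 7 ratio of *Itga6* to -0.18, that of *Itgb3* to 1.004 and the Day 14 ratio of *Itgbl1* to 0.51.

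Most members were lower in muscle-high spots on Day 3 and Day 7, and on Day 14 the share of members was near the background. On Day 3 *Itgbl1*, *Itgb1*, *Itgb2*, *Itgb4*, *Itgb5*, *Itgav* and *Itga6* were lower in them (7 of 8, background 45.1%), as were 7 of 10 members on Day 7 (background 17.8%) and 5 of 10 on Day 14 (background 45.4%). *Itgb2* was at 13.2 CPM (3 UMIs) in the muscle-high spots of Day 3 against 141 CPM elsewhere. *Itgbl1* was at 35.2, 80.3 and 42.4 CPM in them, with ratios of -1.18 (-2.43 to -0.16), -0.67 (-1.25 to -0.15) and -0.49 (-1.19 to 0.14).

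The members were also described by distance from the epidermis-high spots. Each spot was placed by its distance to the nearest epidermis-high spot, in spot pitches (the spacing of neighbouring spots). *Itgb4* on Day 3 was at 101 CPM in the epidermis-high spots, 31.8 CPM at 1 pitch, 13.5 CPM at 2 to 3 pitches and 5.44 CPM at 4 to 6 pitches. *Itgbl1* on Day 3 was at 83.9 CPM (64.0 to 108) in the epidermis-high spots and 134 CPM (101 to 175) at 1 pitch, with overlapping intervals, and at 31.4 CPM (17.2 to 52.7) at 2 to 3 pitches and 5.44 CPM (1 UMI in 82 spots) at 4 to 6 pitches. On that day *Itgbl1* thus lay in the epidermis-high spots and those next to them. *Itgb2* was also highest at 1 pitch, at 183 CPM (144 to 230), but was still at 144 CPM (110 to 183) at 2 to 3 pitches, where *Itgbl1* was low.

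On Day 7 *Itgbl1* was at 92.2 CPM in the epidermis-high spots, 104 CPM at 1 pitch, 162 CPM (143 to 184) at 2 to 3 pitches and 121 CPM (96.7 to 151) at 4 to 6 pitches. *Itga11* had the same order of bins, at 41.7, 56.6, 80.1 and 61.4 CPM. *Itgb2* on Day 7 varied less, between 34.9 and 56.2 CPM. On Day 14 *Itgbl1* was at 43.1 CPM in the epidermis-high spots and between 60.3 and 69.7 CPM in the 3 deeper bins, whose intervals overlapped. *Itga6* was highest in the epidermis-high spots on all 3 days, at 133, 69.6 and 86.8 CPM, and at 32.7, 35.1 and 30.2 CPM at 4 to 6 pitches. Distances beyond that were reached on Day 14 only, by 24 spots with 1 *Itgbl1* UMI.

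**Figure D4:**
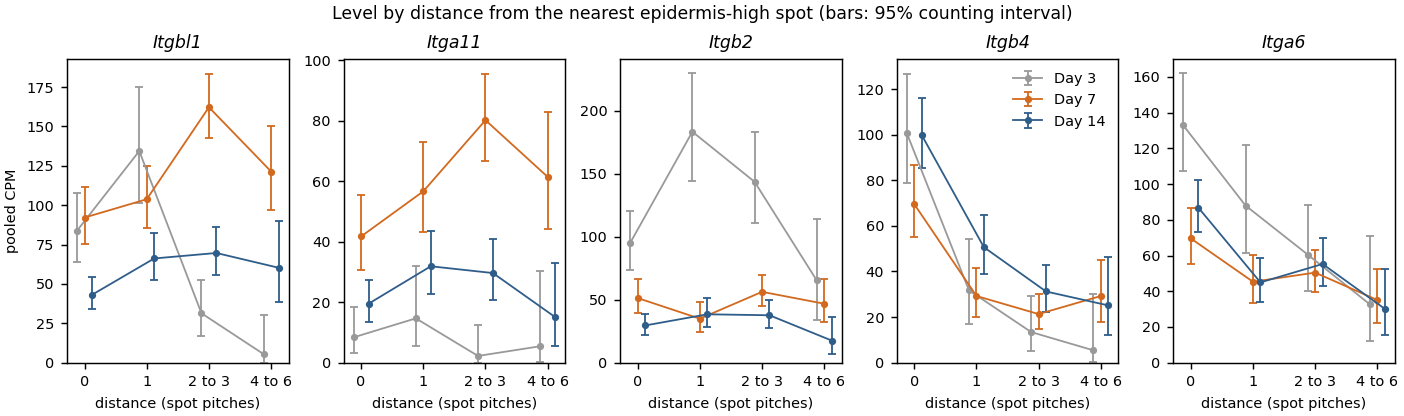
Pooled CPM of 5 genes by distance, in spot pitches, from the nearest epidermis-high spot on Day 3, Day 7 and Day 14, with 95% counting intervals; each panel has its own axis from 0. *Itgb4* and *Itga6* are highest at distance 0 on each day. The highest point of *Itgbl1* is at 1 pitch on Day 3 (134 CPM, with an interval that overlaps that of distance 0) and at 2 to 3 pitches on Day 7 (162 CPM). Those of *Itga11* (80.1 CPM) and *Itgb2* (56.2 CPM) on Day 7 are at 2 to 3 pitches too.

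Spot by spot the counts were sparse. An *Itgbl1* UMI was found in 81 of 664 spots on Day 3, 260 of 549 on Day 7 and 187 of 697 on Day 14, with at most 5, 11 and 5 UMIs in a spot. After each spot was thinned to 1000 UMIs, leaving out shallower spots, the share with an *Itgbl1* UMI was 4.93% of 426 spots on Day 3 (3.08 to 7.44), 11.0% of 525 on Day 7 (8.50 to 14.0) and 4.27% of 679 on Day 14 (2.88 to 6.08). The unthinned shares of those spots were 18.3%, 49.5% and 27.4%. The Day 7 share was above both others on either scale. Muscle-high spots, taken as background, had thinned shares of 2.86%, 8.06% and 1.82% with intervals that overlapped those of all spots. Their median depths were 1791, 2602 and 2943 UMIs against 2373, 7128 and 4948. All spots included the muscle-high ones, so a part was compared with its whole. The shares therefore could not tell whether *Itgbl1* stood apart from the background at this depth. For *Itgb2* the thinned shares were 10.3%, 4.19% and 2.65%, and for *Itga11* 0.469%, 4.95% and 2.65%.

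**Figure D5:**
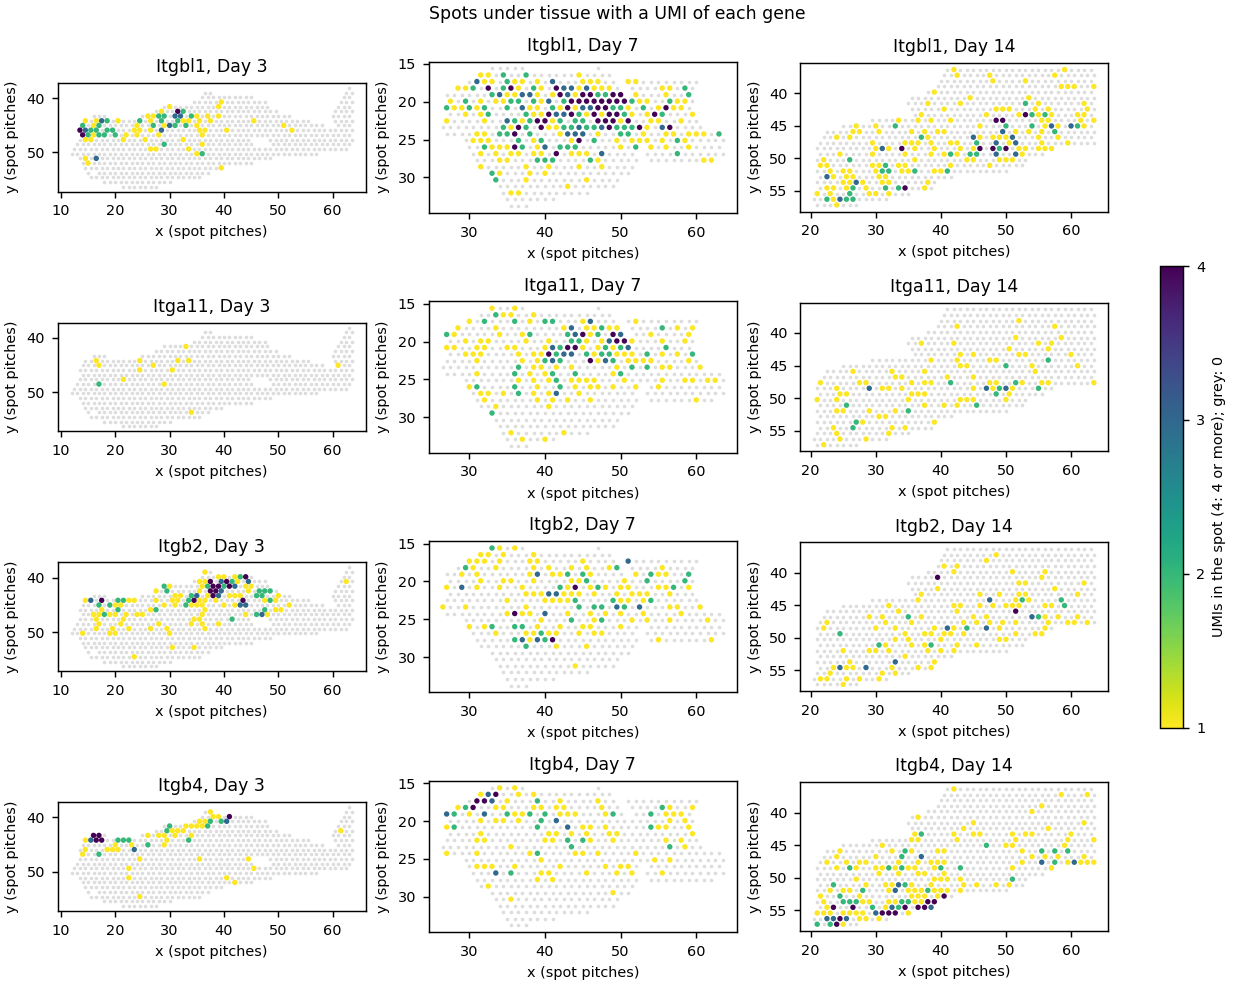
UMIs of *Itgbl1*, *Itga11*, *Itgb2* and *Itgb4* in each spot under tissue of the Day 3, Day 7 and Day 14 sections, with both axes in spot pitches and grey spots at 0. *Itgbl1* was found in 81, 260 and 187 spots, and on Day 7 its spots of 4 or more UMIs and those of *Itga11* lie in the upper middle of the section.

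Across the spots of a section, the correlation of *Itgbl1* with *Itga11* was the highest of the 9 partners on Day 3 (Pearson r = 0.186 over 520 spots) and Day 14 (r = 0.091 over 689 spots), and the second highest on Day 7 (r = 0.198 over 539 spots), after *Itgb5* (r = 0.211). The correlation with *Itgb2* was 0.032, 0.127 and 0.012, and with *Itgb4* it was 0.059, 0.026 and 0.024. These spots share a section and their depth, and after thinning the values for *Itga11* were 0.139, 0.030 and 0.010, so the weak correlations of Day 7 and Day 14 were not detectable at that depth. When each spot was summed with its adjacent spots, *Itgbl1* had r of 0.202, 0.430 and 0.252 with *Itga11*, 0.267, 0.386 and 0.239 with *Itgb5*, -0.0052, 0.256 and 0.119 with *Itgb2*, and 0.086, -0.061 and -0.067 with *Itgb4*. On this scale *Itgb5* was above *Itga11* on Day 3. The summed matrix fibroblast list as partner gave 0.463, 0.539 and 0.429 over the days. The leukocyte list gave 0.180, 0.492 and 0.436, below the fibroblast list on Day 3 and close to it on Day 7 and Day 14. The epidermis list gave 0.348, -0.025 and 0.095, so on Day 3 it was above the leukocyte list and below the fibroblast list.

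The genes whose placing was most like that of *Itgbl1* were genes of connective tissue. Likeness was Pearson's r over 18 list-high log2 ratios (6 lists by 3 days), among 2932 genes with at least 100 UMIs on each day and outside the lists. The 5 most alike were *Aspn* (r = 0.963), which encodes the small proteoglycan asporin, *Aebp1* (0.943), which encodes a collagen-binding secreted protein, *Timp2* (0.942), a metalloprotease inhibitor, *Pdgfrl* (0.939) and *Ccdc80* (0.935), a matrix protein gene. *Aspn* was at 158, 454 and 158 CPM over the days and so also had a Day 7 peak, while *Timp2*, at 704, 671 and 322 CPM, and *Pdgfrl*, at 88.0, 85.1 and 29.5 CPM, had none. Among the members the order was *Itga11* (0.67), *Itgb3* (0.49), *Itgb5* (0.46), *Itgb1* (0.42), *Itgav* (0.38), *Itgb2* (0.24), *Itga5* (0.22), *Itgb4* (0.15) and *Itga6* (0.14). The r of *Itga11* exceeded that of 95.5% of the 2932 genes, although it rests on 15 UMIs on Day 3, and that of *Itgb2* exceeded 49.2%. *Itgb3* and *Itgb4* had 32 and 93 UMIs on Day 3, so they and *Itga11* were under the 100 UMIs asked of the 2932 genes. The 18 values of a gene share spots and sections, and the list-high sets overlap.

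Of 17 further integrin subunits, 9 had enough UMIs to be counted in Day 7 over Day 3 and 12 in Day 14 over Day 7. *Itgam*, the alpha chain that pairs with beta 2 on neutrophils and macrophages, was at 110 CPM on Day 3, 21.2 on Day 7 and 13.4 on Day 14, with a Day 7 over Day 3 ratio of -2.38 (-2.75 to -2.02), so the lower level of *Itgb2* was shared by this partner. *Itgal*, the beta 2 partner of lymphocytes, was at 9.59, 16.4 and 19.5 CPM and past the fold higher on Day 7 at 0.78, with a lower bound of 0.00. *Itga3*, a laminin receptor chain of keratinocytes, was lower on Day 7 at -1.08 (-1.63 to -0.53) and higher again on Day 14 at 1.10 (0.66 to 1.55), the course of *Itgb4*. *Itga7*, the laminin receptor chain of muscle, was at 29.9, 67.1 and 36.0 CPM. These were the 2 higher and 2 lower subunits of Day 7 over Day 3, where 16.9% of all counted genes were higher and 14.4% lower. For Day 14 over Day 7 the shares of all counted genes were 22.6% higher and 14.8% lower. Day 14 over Day 7 had 3 higher, *Itga3* and the beta chains *Itgb6* (1.31), an epithelial partner of alpha v, and *Itgb8* (1.04), and 6 lower, *Itga1*, *Itga4*, *Itga7*, *Itga9*, *Itgam* and *Itgax*, with ratios from -1.05 to -0.65. *Itga1*, a collagen receptor chain, and *Itga9*, which binds tenascin C, thus had the Day 14 direction of *Itgbl1* and not its Day 7 call.

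Of 14 adaptors that connect integrins to actin and signalling, 13 were counted. *Tln2*, *Ptk2*, *Ilk*, *Zyx*, *Bcar1* and *Src* were past the fold higher in Day 7 over Day 3, with ratios from 0.62 to 1.21, none was lower, and the list's median was 0.55 against 0.04 for all genes. Of all counted genes 16.9% were higher and 14.4% lower. In Day 14 over Day 7 *Tln2*, *Ilk*, *Zyx*, *Bcar1*, *Fermt2* and *Parva* were lower, with ratios from -0.89 to -0.64, and none was higher. Here 14.8% of all counted genes were lower and 22.6% higher. Most of the 6 adaptors higher on Day 7 thus had the up and down course of *Itgb5*, the exceptions being *Ptk2* and *Src*, at -0.21 and -0.08 in the later comparison.

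Integrin ligand genes changed in both directions. In Day 7 over Day 3 the stromal ligand genes *Postn* (3.94), *Tnc* (3.02), *Col3a1* (1.20), *Fn1* (1.17) and *Fbn1* (1.04) were higher together with the laminin chain *Lama5* (0.83). The epidermal laminin chains *Lamb3* (-1.73) and *Lama3* (-1.07), which are part of a ligand of alpha 6 beta 4, were lower, with *Vtn* (-0.95), *Spp1* (-0.79) and *Icam1* (-0.66), the counter-receptor of beta 2 integrins. In Day 14 over Day 7 *Tnc*, *Postn*, *Fn1*, *Col3a1*, *Fbn1* and *Col1a1* were lower, from -2.89 to -0.81, and *Lama3*, *Lama5* and *Lamb3* were higher, from 0.98 to 1.34. *Fn1*, the ligand gene of alpha 5 beta 1, was at 459, 1029 and 275 CPM, and *Lama3* at 20.3, 9.68 and 24.5 CPM. *Fn1* and *Itga5* were thus both highest on Day 7, although the *Itga5* peak was not resolved from counting error. *Lama3*, a chain of the hemidesmosome ligand, and *Itgb4* were both lowest on Day 7. *Postn*, *Tnc* and *Fn1* are in the granulation list and *Col1a1*, *Col3a1* and *Fbn1* in the matrix fibroblast list, so those rankings used them.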

How the data were processed

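The deposited files were, per the labels, Space Ranger 1.3.0 output on mm10, from Visium slides of fresh frozen skin wounds. The authors deposited raw UMI counts per gene and spot, with no normalization, and a position list that marks the spots under tissue; strand handling is not given in the sources used here. All comparisons used the marked spots. The 3 slides list the same 4992 barcodes, which are array positions, not cells. The members and lists were chosen with earlier results of these data known.

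Groups were taken from the labelled time after injury, with 1 section per day. UMIs were pooled per section and scaled to CPM, with exact Poisson 95% intervals. Ratios of pooled CPM have exact conditional binomial 95% intervals, which cover counting error only, as spots are not replicates. A ratio was past the fold at 1.5-fold or more with an interval that left out 1, among genes with at least 50 UMIs. List-high spots were the highest 25% of spots with at least 500 UMIs by the share of UMIs from a 10-gene list, and spots within 10% of that limit numbered between 20 and 117. Shares of spots have exact binomial (Clopper-Pearson) intervals after thinning to 1000 UMIs. For likeness 0.5 was added to each count. All 10 members were named on each day; of the further subunits, adaptors and ligands, those past the fold in Day 7 over Day 3 or Day 14 over Day 7, and the 5 genes most like *Itgbl1*; 1 ligand past the fold is not reported here. The interval scripts were tested on simulated data. Gene positions came from GENCODE M21 and promoters from RefSeq. Alternatives are given in the closing section. Software was Python 3.11.15, numpy 2.4.6, scipy 1.17.1, pandas 2.3.3 and matplotlib 3.10.9, with R 4.3.3, edgeR 4.0.16 and DESeq2 1.42.0 used for scaling factors only.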

Additional observations from a re-analysis of the deposited data

Results flagged for a closer look

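*Itgbl1* went in opposite directions in leukocyte-high spots of 2 sections, with a log2 ratio of -0.78 (-1.52 to -0.11) on Day 3 and 1.002 (0.63 to 1.37) on Day 14. The difference between the sections was not tested, since there was 1 section per day. Of the matrix fibroblast-high spots, 16.9% were leukocyte-high on Day 3 and 48.8% on Day 14.

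Spots that the position lists do not mark as under tissue also held UMIs of the 10 members: 977 on Day 3, 4050 on Day 7 and 2172 on Day 14, above the 3 counts that a count of 0 allows. The marked spots held 1836, 5219 and 3269. *Itgbl1* was at 27.6, 46.0 and 27.2 CPM in the unmarked spots against 73.4, 124 and 57.7 CPM in the marked ones, and *Itgb2* at 94.5, 24.9 and 17.4 CPM. What lies under the unmarked spots was not tested.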

How the results depend on the processing

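Day ratios were recomputed by the mean of spot CPM, with TMM and with DESeq2 size factors, with spots of at least 500 UMIs only, over all spots of the slide and without muscle-high spots. Of 186 recomputed day ratios, those with 2 added scales included, 150 stayed within the counting interval and no ratio past the fold changed direction. The mean of spot CPM moved the median of all genes in Day 7 over Day 3 from 0.04 to 0.27 and in Day 14 over Day 3 from 0.18 to 0.36. By this mean *Itgbl1* was at 0.15 in Day 14 over Day 3, below the 0.36 median of all genes. Its sign thus differed from the -0.35 of pooled CPM, which was not past the fold. In Day 14 over Day 7 *Itgbl1* was at -0.89 by this mean, and all spots of the slide gave -0.88. *Itgav* in Day 7 over Day 3, not past the fold at -0.49, was at 0.07 by this mean. Per matrix fibroblast UMI, a scale added after the data were seen, *Itgbl1* gave 0.27, -0.16 and 0.11 in Day 7 over Day 3, Day 14 over Day 7 and Day 14 over Day 3, and without *Col1a1* and *Col3a1* -0.26 and 0.22 in the last 2.

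Of 422 recomputed list-high ratios, 348 stayed within the counting interval, 63 moved beyond it and 11 of ratios past the fold changed direction. Thinning before pooling left few UMIs and changed the direction of *Itga6* (-0.18) and *Itgb3* (1.004) in epidermis-high spots of Day 7, *Itgb2* in fibroblast-high spots of Day 3 (0.047), *Itgb3* in those of Day 7 (-1.58), *Itgb4* in leukocyte-high spots of Day 3 (2.18) and *Itgbl1* in epidermis-high spots of Day 14 (0.51) and leukocyte-high spots of Day 3 (0.092). It moved *Itgbl1* to 1.22 in fibroblast-high spots of Day 3 and to -0.028 in epidermis-high and leukocyte-high spots of Day 7. Summed ranks changed the direction in leukocyte-high spots of *Itgb4* on Day 3 (0.40) and Day 14 (0.36) and of *Itgbl1* on Day 3 (0.049), and gave *Itgbl1* 1.20 in epidermis-high spots of Day 3. The highest 10% of spots gave *Itgbl1* 1.62 in fibroblast-high spots of Day 14, 0.10 in leukocyte-high spots of Day 7 and -0.25 in epidermis-high spots of Day 3, where a larger set of 33.3% gave 0.85. Leukocyte-high spots outside the fibroblast-high ones, also added after the data were seen, gave 0.30, -0.055 and 0.51. The causes were not tested.

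Counts of genes past the fold higher in Day 7 over Day 3, Day 14 over Day 7 and Day 14 over Day 3 were 1781, 2657 and 2809, became 892, 1433 and 1399 with at least 200 UMIs per gene and 838, 1283 and 1560 at 2-fold; those lower were 1518, 1737 and 1493, then 736, 1012 and 757, and 684, 862 and 748. Both settings call fewer genes by construction. No paired analysis was possible because each day had 1 section and the labels give no shared replicate numbers, and no replicate could be left out. Depth limits *Itga11* and *Itgb3* on Day 3, with 15 and 32 UMIs.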
